A study of Mus musculus with 24 samples.

Results

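The genes described here build the receiving side of the neuromuscular junction: Chrna1, Chrnb1, Chrnd, Chrng and Chrne, which encode the subunits of the muscle nicotinic acetylcholine receptor, Musk and Rapsn, which encode proteins that gather the receptor into clusters, and Ache, which encodes the enzyme that breaks down acetylcholine. They were chosen as the 8 genes of this list, with every probe set that the annotation of the arrays gives one of these symbols. This gave 10 of the 22690 probe sets of the MA array design and 0 of the 22575 probe sets of the MB design. Of the 10 probe sets, 7, from 6 genes, were bright enough to test.

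RNA came from C2C12 cells, a mouse myoblast line that stops dividing and fuses into myotubes when moved out of growth medium. All cells were transduced with pSuperR, either carrying a short hairpin RNA (shRNA) against p68 or empty, and were kept in differentiation medium (DM) or growth medium (GM). The groups were DM shRNA, DM vector, GM shRNA and GM vector, each with 3 arrays of each design, 24 arrays in all. The labels do not give the days in DM, and they do not say whether arrays of a group came from separate cultures or clones, so each p-value reflects array-to-array spread alone, and that spread may be technical. p68, encoded by Ddx5, is a DEAD-box RNA helicase known as a coactivator of the muscle transcription factor MyoD.

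The muscle receptor is a pentamer of alpha, beta and delta subunits, completed by gamma in fetal and denervated muscle and by epsilon in adult, innervated muscle. At the developing synapse, agrin released by the nerve binds LRP4, which activates the receptor tyrosine kinase MuSK, and rapsyn then anchors the receptors under the nerve ending. Myogenic factors such as MyoD and myogenin bind E-boxes, whose letters are CANNTG, in promoters of the subunit genes as myoblasts differentiate.

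Promoter sequences were taken from RefSeq (mouse build GRCm38.p6), which matched 6 of the 8 genes, all but Chrnd and Rapsn. Each window runs from 250 bases before to 50 bases after the start of the gene, 300 bases in all. The promoters of Chrna1, Chrnb1, Chrng and Musk, 4 of the 5 genes that rose in DM, are printed with that of Chrne, which stayed near the bottom of the signal range. The first 4 windows hold 3 CANNTG matches each and that of Chrne holds 1. Whether these letters bear on the signals was not tested. Sequences run 5′ to 3′ on the strand of the gene, and capitals mark CANNTG and CCGGAA, the letters of the N-box through which ETS factors act on Chrne.
Chrna1, chr2:73580289-73580588, minus strand: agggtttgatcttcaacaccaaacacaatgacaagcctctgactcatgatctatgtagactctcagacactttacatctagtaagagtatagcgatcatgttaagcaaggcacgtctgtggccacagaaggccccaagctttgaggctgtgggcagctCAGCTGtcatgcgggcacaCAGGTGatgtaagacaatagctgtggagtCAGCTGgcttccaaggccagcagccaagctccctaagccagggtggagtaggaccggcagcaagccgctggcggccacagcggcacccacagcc
Chrnb1, chr11:69795888-69796187, minus strand: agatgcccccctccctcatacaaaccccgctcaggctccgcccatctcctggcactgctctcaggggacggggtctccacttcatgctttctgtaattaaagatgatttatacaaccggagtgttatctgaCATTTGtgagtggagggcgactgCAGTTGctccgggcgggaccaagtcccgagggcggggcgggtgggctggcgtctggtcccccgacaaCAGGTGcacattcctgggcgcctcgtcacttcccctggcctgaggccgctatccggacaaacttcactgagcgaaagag
Chrng, chr1:87205561-87205860, plus strand: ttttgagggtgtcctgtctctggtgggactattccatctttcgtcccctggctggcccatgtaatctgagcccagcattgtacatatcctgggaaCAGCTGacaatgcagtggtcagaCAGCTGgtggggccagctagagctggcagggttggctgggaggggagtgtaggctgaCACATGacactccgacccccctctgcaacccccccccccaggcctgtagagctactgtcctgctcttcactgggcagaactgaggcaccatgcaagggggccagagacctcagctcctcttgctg
Musk, chr4:58285712-58286011, plus strand: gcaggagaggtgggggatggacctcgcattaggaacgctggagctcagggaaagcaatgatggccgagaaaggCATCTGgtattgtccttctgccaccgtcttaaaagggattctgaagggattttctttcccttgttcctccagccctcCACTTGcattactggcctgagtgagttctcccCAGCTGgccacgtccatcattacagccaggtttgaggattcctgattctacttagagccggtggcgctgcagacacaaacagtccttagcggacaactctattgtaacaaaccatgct
Chrne, chr11:70619145-70619444, minus strand: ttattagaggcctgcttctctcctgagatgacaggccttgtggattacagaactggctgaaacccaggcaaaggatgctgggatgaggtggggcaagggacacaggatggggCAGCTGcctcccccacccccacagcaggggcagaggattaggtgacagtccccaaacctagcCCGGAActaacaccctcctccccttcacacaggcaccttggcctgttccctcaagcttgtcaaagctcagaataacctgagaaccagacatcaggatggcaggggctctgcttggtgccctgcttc
Both strands were searched, which for CANNTG gives the same matches. The Chrna1 window held 3 CANNTG matches, at -92, -73 and -44 from the start of the gene. All 3 also fit CANCTG, the form that includes CAGCTG, and 5.2% of 32851 RefSeq promoter windows held as many. The Chrng window held CAGCTG at -155 and -132 and CACATG at -75. The Chrnb1 and Musk windows also held 3 CANNTG matches each, of which 2 each fit CANCTG. In the whole set, 17.6% of windows held 3 or more CANNTG and 18.2% held 2 or more CANCTG. Chrne held 1 CANNTG, at -138, as 72.3% of windows did at least once, and the only CCGGAA of the 6 windows, at -76, a motif found in 14.9% of all windows. Ache, not printed, held 1 CANNTG, spelled CACGTG, at -199. The MEF2 pattern, CTA and TAG with 4 bases of any kind between them, occurred in none of the 6 windows and in 3.7% of all windows. A match describes the letters only, and no binding was measured.

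The authors deposited linear MAS5 signals, 1 for each probe set of an array, in which the trimmed mean of each MA array was 150.1. Tests used log2(signal + 15), so a log2 change understates the change of dim genes, and a probe set was tested if it reached a signal of 30 in at least 3 of 12 arrays. The mean correlation of an array with the others of its group lay between 0.951 (DM vector replicate 3) and 0.983 in the MA arrays, and between 0.825 (DM vector replicate 2) and 0.886 in the MB arrays. Ddx5, the target of the shRNA, had 302.5 to 373.1 in DM shRNA arrays and 407.9 to 673.5 in DM vector arrays (limma log2 change -0.68 ± 0.15 SE, adjusted p = 0.00677). In GM it had 351.4 to 388.3 in shRNA arrays and 420.4 to 489.2 in vector arrays, a change of -0.31 ± 0.15 that did not pass (limma adjusted p = 0.287).

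The genes of the receptor subunits alpha, beta, delta and gamma rose in DM, in cells with the shRNA and in cells with the empty vector. The size of the change differed widely among them, from 2.49-fold for Chrna1 to 29.3-fold for Chrng in vector cells, on the scale with the pseudocount. Chrna1, whose product carries most of the acetylcholine binding site, had signals of 3848.9, 3911.9 and 4051.9 in DM shRNA arrays and 4233.8, 4630.7 and 5575.0 in DM vector arrays. In GM it had 1811.3, 1915.6 and 1614.7 in shRNA arrays and 2048.3, 1766.8 and 1932.7 in vector arrays. Every DM array lay above every GM array, and the gene was already far above the filter in GM. The log2 change, DM against GM, was 1.14 ± 0.11 SE in shRNA cells (limma adjusted p = 2.3e-06) and 1.32 ± 0.11 in vector cells (limma adjusted p = 2.18e-07). In RNA from whole cultures, fewer cells of a type and less RNA per cell cannot be told apart, and this holds for each comparison here.

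Chrnb1, which encodes the beta subunit, had 657.2, 656.3 and 557.1 in DM shRNA arrays and 814.9, 813.4 and 811.9 in DM vector arrays. Its GM signals were 103.2, 127.6 and 169.8 in shRNA arrays and 205.7, 128.9 and 207.3 in vector arrays. The media did not overlap, and the 3 DM vector arrays were within a few units of each other. The log2 change was 2.12 ± 0.18 in shRNA cells (limma adjusted p = 4.35e-07) and 2.11 ± 0.18 in vector cells (limma adjusted p = 1.89e-07).

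Chrnd, which encodes the delta subunit, had 106.6, 120.8 and 185.0 in DM shRNA arrays and 229.3, 245.6 and 210.2 in DM vector arrays, while all 6 GM arrays lay between 2.5 and 5.2. All GM values were thus below the pseudocount, so the gene passed the filter only through its DM arrays and the size of its change is set in part by the pseudocount. The log2 change was 2.91 ± 0.19 in shRNA cells (limma adjusted p = 2.24e-08) and 3.74 ± 0.19 in vector cells (limma adjusted p = 5.93e-10). In shRNA cells it became 3.82 with a pseudocount of 5 and 1.75 with 50, and in vector cells 4.84 with 5 and 2.39 with 50.

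Chrng encodes the gamma subunit of the fetal receptor and had 3 probe sets. The brightest, 1449532_at, had 1574.9, 1535.1 and 1908.3 in DM shRNA arrays and 2587.5, 3116.0 and 3254.8 in DM vector arrays. In GM the same probe set had 60.9, 104.9 and 52.2 in shRNA arrays and 110.0, 72.3 and 81.7 in vector arrays. The media were far apart, and within DM all shRNA arrays lay below all vector arrays. The log2 change was 4.31 ± 0.20 in shRNA cells (limma adjusted p = 5.18e-10), 19.8-fold, and 4.87 ± 0.20 in vector cells (limma adjusted p = 6.22e-11), 29.3-fold. The second probe set, 1452520_a_at, passed the filter only through DM, with 342.8 to 400.8 in DM shRNA arrays, 671.2 to 824.2 in DM vector arrays and 1.1 to 24.2 over the 6 GM arrays. It changed by 4.02 ± 0.22 in shRNA cells and 4.59 ± 0.22 in vector cells. The third, 1427728_at, stayed between 2.4 and 13.2 in all 12 arrays, including those in which the other probe sets were bright, and was not tested. Chrng and Chrnd are neighbours on chromosome 1, with 0 annotated genes between them.

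**Figure D1:**
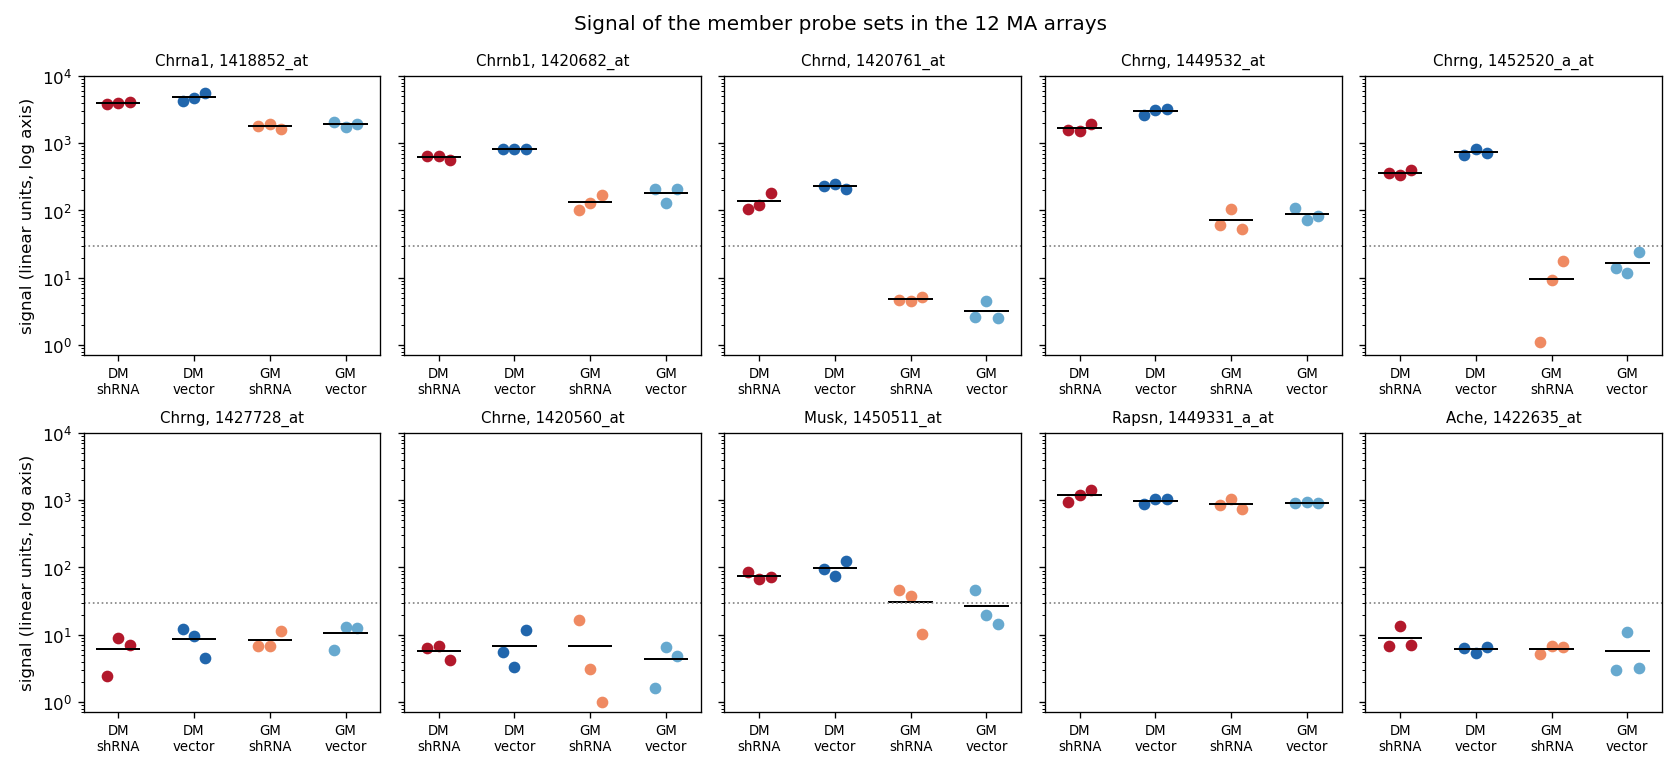
MAS5 signal (linear units on a log axis) of the 10 probe sets of the 8 genes in each of the 12 MA arrays. Points are arrays, bars are group means, groups run DM shRNA, DM vector, GM shRNA, GM vector, and the dotted line is the filter level of 30. Chrng, Chrnd, Chrnb1 and Chrna1 lie higher in DM, Rapsn overlaps between media, and Chrne, Ache and Chrng probe set 1427728_at lie under the line in all arrays.

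Because the receptor is assembled from fixed numbers of subunits, each subunit's change was also set against that of Chrna1 within the same array. On the scale with a pseudocount of 15, the changes relative to Chrna1 were as follows. The difference of log2 signals, Chrng minus Chrna1, was higher in DM than in GM by 3.17 in shRNA cells and by 3.56 in vector cells. For Chrnd the same difference was 1.77 in shRNA cells (2.67 with a pseudocount of 5, 0.62 with 50) and 2.43 in vector cells (3.52 with 5, 1.09 with 50). For Chrnb1 it was 0.98 in shRNA cells and 0.79 in vector cells. The order of Chrnd and Chrng depends on the pseudocount, since the DM mean signal over the GM mean signal was 28.4 for Chrnd and 23 for Chrng in shRNA cells, and 72 for Chrnd and 33.9 for Chrng in vector cells. In each of these 6 comparisons the DM arrays did not overlap the GM arrays. By exact permutation (two-sided) each had p = 0.1, the smallest that 3 against 3 arrays allow, and 0.17 after adjustment over the 12 comparisons of this kind. Within DM, the Chrng to Chrna1 difference was -1.23 ± 0.14 in shRNA arrays and -0.68 ± 0.10 in vector arrays (SD, n = 3 each). These did not overlap (exact permutation p = 0.1, 0.17 after the same adjustment). For the other subunits the DM shRNA and DM vector arrays overlapped, with -0.43 for Chrnd (exact permutation p = 0.2) and -0.1 for Chrnb1 (exact permutation p = 0.5). The values compare changes, not amounts of RNA, since probe sets differ in brightness per molecule.

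**Figure D2:**
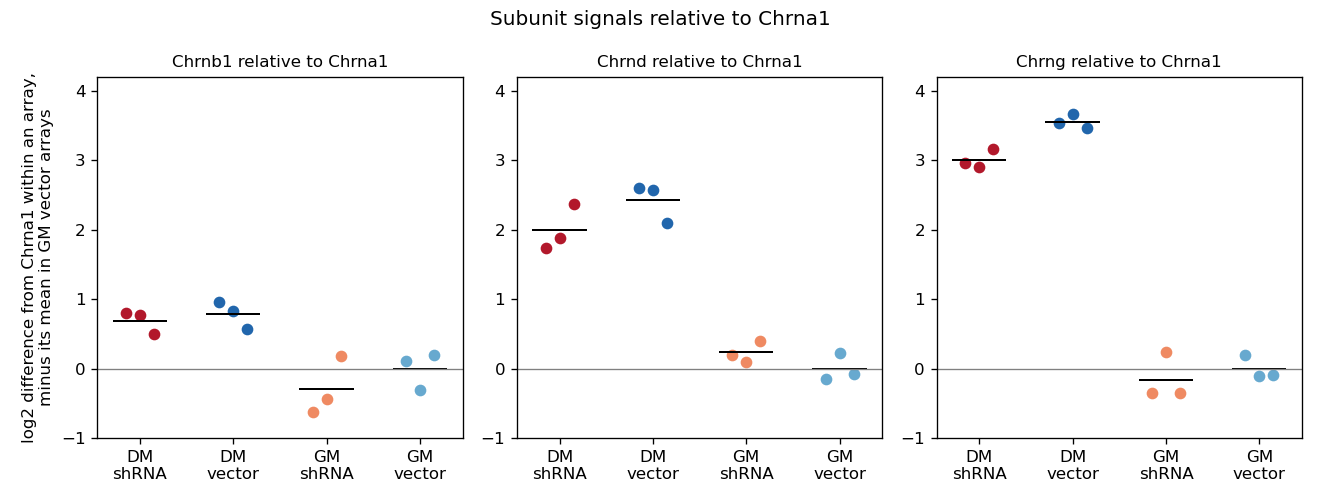
Log2(signal + 15) of Chrnb1, Chrnd and Chrng minus that of Chrna1 in the same array, shifted so that the mean of the GM vector arrays is 0. Points are the 12 MA arrays and bars are means of 3. All DM arrays lie above all GM arrays, and for Chrng the DM shRNA arrays lie below the DM vector arrays.

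Of the genes that cluster the receptor, Musk rose in DM and Rapsn did not pass the test in either kind of cell. Musk, the kinase at the centre of synapse formation, was dim, with 86.8, 68.6 and 72.7 in DM shRNA arrays and 93.7, 75.3 and 123.1 in DM vector arrays. Its GM signals were 45.9, 37.2 and 10.1 in shRNA arrays and 46.9, 19.4 and 14.3 in vector arrays. The lowest DM array stood above the highest GM array, but both GM groups were spread over more than 3-fold. The log2 change was 1.08 ± 0.32 in shRNA cells (limma adjusted p = 0.0176) and 1.48 ± 0.32 in vector cells (limma adjusted p = 0.00139). The call in shRNA cells was lost without DM shRNA replicate 1 (0.99, limma adjusted p = 0.0639) or GM shRNA replicate 4 (0.69, limma adjusted p = 0.0899).

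Rapsn, the scaffold that binds the receptor from inside the cell, was well above the filter in both media. It had 943.6, 1178.0 and 1417.0 in DM shRNA arrays and 877.1, 1046.7 and 1026.9 in DM vector arrays. In GM it had 864.3, 1060.5 and 752.8 in shRNA arrays and 896.3, 931.1 and 916.5 in vector arrays. In each pair of groups compared, the arrays overlapped. The log2 change, DM against GM, was 0.39 ± 0.15 in shRNA cells (95% interval 0.07 to 0.71, limma adjusted p = 0.0556) and 0.10 ± 0.15 in vector cells (95% interval -0.22 to 0.42, limma adjusted p = 0.615). The first lies close to the threshold and passed it without any 1 of 4 arrays: DM shRNA replicate 1 (0.54, limma adjusted p = 0.0144), GM shRNA replicate 3 (0.52, limma adjusted p = 0.0216), DM vector replicate 1 (0.39, limma adjusted p = 0.0471) or DM vector replicate 3 (0.39, limma adjusted p = 0.0468).

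The remaining genes were not measured above the filter. Chrne, whose epsilon subunit replaces gamma at mature synapses, had 6.4, 6.8 and 4.2 in DM shRNA arrays and 5.6, 3.3 and 11.8 in DM vector arrays, against 16.3, 3.1 and 1.0 in GM shRNA arrays and 1.6, 6.6 and 4.8 in GM vector arrays. Ache, the esterase of the synaptic cleft, lay between 3.0 and 13.4 in all 12 arrays. A dim probe set sets no limit on the amount of RNA, and the third Chrng probe set stayed dim in arrays where the others of its gene were bright.

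Over the tested probe sets, 6 of 7 were called higher and 0 lower in DM in each kind of cell. Among all 14367 tested MA probe sets, 16.3% were called higher and 17.5% lower in shRNA cells, and 23.9% higher and 25.4% lower in vector cells. The 6 probe sets also had no overlap between media in either kind of cell, as did 25.1% (shRNA) and 25.9% (vector) of all tested probe sets in the same direction. The median log2 change of the 7 was 2.12 in shRNA cells and 2.11 in vector cells, beside -0.003 and 0.008 over all tested probe sets. Chrnd and 1 Chrng probe set entered the count only through DM, so the count describes these 7 and supports nothing about the filtered ones. The 3′ to 5′ log2 ratio of the Gapdh and Actb control probe sets, a sign of RNA integrity, averaged -0.013 in DM shRNA and 0.027 in GM shRNA arrays (exact permutation p = 0.2), and -0.02 in DM vector and 0.073 in GM vector arrays (exact permutation p = 0.1). Its part in the changes was not tested.

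In DM, the shRNA was accompanied by lower signals of the gamma and delta subunit genes. Chrng was lower by -0.83 ± 0.20 at probe set 1449532_at (limma adjusted p = 0.0085), which averaged 1673 ± 205 in DM shRNA arrays and 2986 ± 352 in DM vector arrays (SD, n = 3 each), 56% of the vector mean. At probe set 1452520_a_at Chrng averaged 366.3 ± 30.5 in DM shRNA arrays and 739.2 ± 77.9 in DM vector arrays, and the change was -0.98 ± 0.22 (limma adjusted p = 0.00656). This second probe set missed the threshold with a pseudocount of 5 (limma adjusted p = 0.0709), and both held whichever array was left out. Chrnd averaged 137.5 ± 41.8 in DM shRNA arrays and 228.4 ± 17.8 in DM vector arrays, 60.2% of the vector mean, with a change of -0.71 ± 0.19 (limma adjusted p = 0.0162). The Chrnd call was lost without DM shRNA replicate 1 (-0.56, limma adjusted p = 0.0891), DM shRNA replicate 2 (-0.64, limma adjusted p = 0.0754) or DM vector replicate 2 (-0.66, limma adjusted p = 0.0662).

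Chrna1 and Chrnb1 were also lower in every DM shRNA array than in any DM vector array but did not pass. Chrna1 averaged 3938 ± 104 in DM shRNA arrays and 4813 ± 689 in DM vector arrays, a log2 change of -0.28 ± 0.11 (95% interval -0.52 to -0.04, limma adjusted p = 0.11). Without DM vector replicate 1 it passed (-0.37, limma adjusted p = 0.0389). Chrnb1 averaged 623.5 ± 57.6 in DM shRNA arrays and 813.4 ± 1.51 in DM vector arrays, a change of -0.38 ± 0.18 (limma adjusted p = 0.173). Musk and Rapsn overlapped between the groups, with changes of -0.29 ± 0.32 for Musk (95% interval -0.97 to 0.40) and 0.24 ± 0.15 for Rapsn (95% interval -0.07 to 0.56).

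Of the 7 tested probe sets, 3 were called lower and 0 higher with the shRNA in DM, while 6.24% of all tested MA probe sets were called lower and 10.7% higher. The groups did not overlap, with shRNA lower, at 5 of the 7, and at 12.3% of all tested probe sets. The median change was -0.38 over the 7 and 0.05 over all tested. Skeletal muscle markers moved in the same comparison: of 7 tested on MA, 3 fell and 1 rose. Ckm, muscle creatine kinase, fell by 0.99 on the log2 scale (limma adjusted p = 0.000199), Myh3, embryonic myosin heavy chain, fell by 0.58 (limma adjusted p = 0.00258), and Des, desmin, fell by 0.52 (limma adjusted p = 0.0413). Pax7, a marker of undifferentiated satellite cells, rose by 0.86 (limma adjusted p = 0.000578). On MB, of 3 such markers tested, 0 fell and 1 rose, beside 0.389% lower and 0.782% higher among all tested MB probe sets. The part of these markers in the changes of Chrng and Chrnd was not tested. The 3′ to 5′ log2 ratio differed by 0.006 between these groups (exact permutation p = 0.9).

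In GM none of the 7 probe sets was called in either direction, and 1 had an unadjusted limma p under 0.05, while 2.57% of all tested MA probe sets were called lower and 3.99% higher. The one was Chrnb1, with 133.5 ± 33.7 in GM shRNA arrays and 180.7 ± 44.8 in GM vector arrays, a change of -0.39 ± 0.18 (95% interval -0.78 to -0.01, limma adjusted p = 0.227). Chrng at its brightest probe set averaged 72.67 ± 28.2 in GM shRNA arrays and 87.98 ± 19.6 in GM vector arrays (-0.26 ± 0.20, limma adjusted p = 0.512). Chrnd averaged 4.841 ± 0.354 in GM shRNA arrays and 3.171 ± 1.14 in GM vector arrays, both below the pseudocount.

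Whether the shRNA changed the response to DM was tested as the interaction, the log2 change with the shRNA in DM minus that in GM. It called 0 of the 7 probe sets in limma, and 1 had an unadjusted p under 0.05, while 5.48% of all tested probe sets were called positive and 4.48% negative. The one was Chrnd, at -0.83 ± 0.26 (limma adjusted p = 0.0594), which passed without DM shRNA replicate 3 (-1.05, limma adjusted p = 0.0172) or DM vector replicate 3 (-0.89, limma adjusted p = 0.0476). All Chrnd signals in GM lay below the pseudocount, so an effect of the shRNA on it in GM could not be measured. The size of its interaction followed the pseudocount, at -1.02 with 5 and -0.64 with 50. Chrng had -0.57 ± 0.28 (95% interval -1.16 to 0.02, limma adjusted p = 0.234) and Chrna1 had -0.17 ± 0.16 (limma adjusted p = 0.574). The call for Chrng and Chrnd in DM and its absence in GM therefore do not show that the effect of the shRNA differed between the media. The 4 comparisons of group pairs share arrays, the DM vector arrays for one, so their values are not independent.

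**Figure D3:**
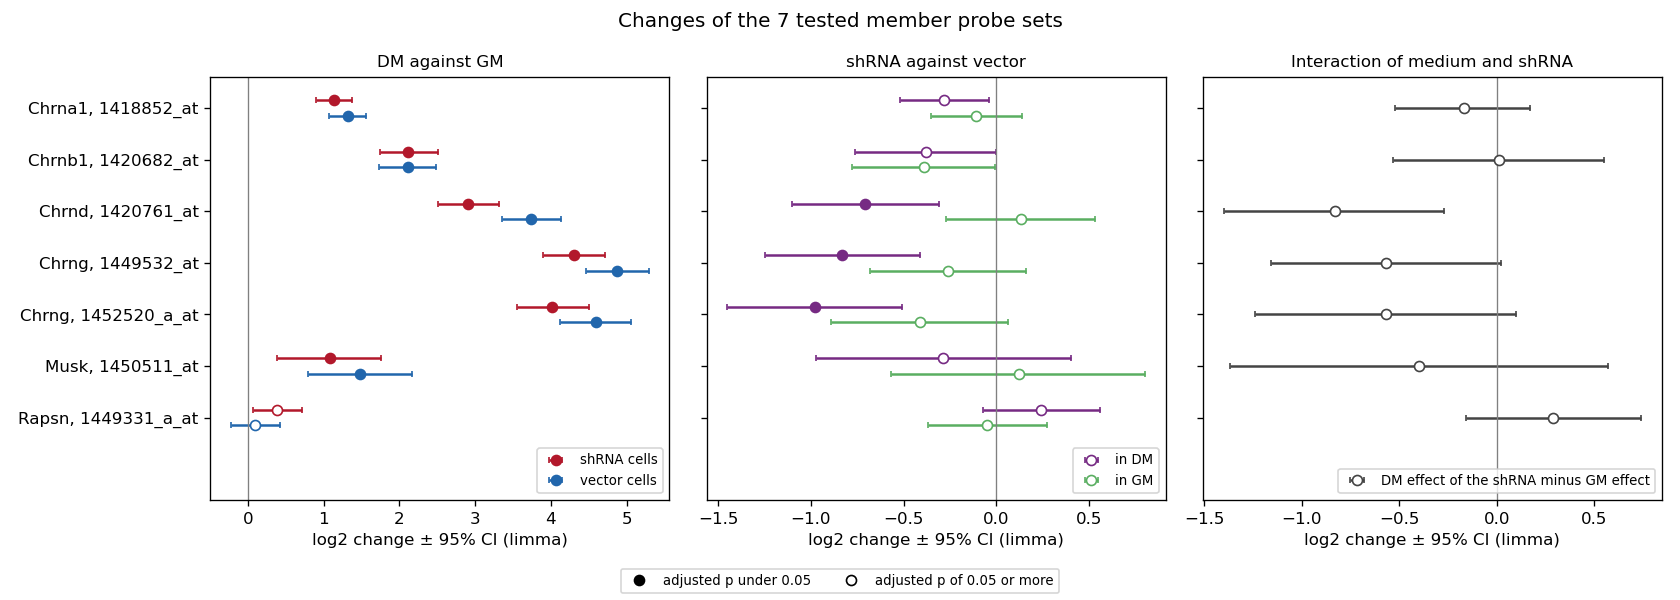
Log2 change with 95% interval of the 7 tested probe sets (limma, 3 arrays per group), for DM against GM (left), shRNA against vector (middle) and their interaction (right). Filled points passed an adjusted p of 0.05. In the left panel every point lies right of 0 and all but those of Rapsn are filled, and in the middle panel Chrnd and both Chrng probe sets are the filled points for the shRNA in DM.

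Other genes of the junction were read from 5 lists with 43 genes, chosen for their role. Of these, 35 were on the MA arrays and 27 were tested there, while 19 were on the MB arrays and 15 were tested. On the MA arrays, 7 rose and 7 fell in DM in shRNA cells, beside the 16.3% higher and 17.5% lower among all tested probe sets. In vector cells, 6 rose and 8 fell, beside 23.9% higher and 25.4% lower. The 7 that rose in shRNA cells became 11 without DM vector replicate 3. On MB, 3 rose and 0 fell in shRNA cells and 4 rose and 1 fell in vector cells, while of all tested MB probe sets 2.27% were called higher and 2.57% lower in shRNA cells, and 4.21% higher and 5% lower in vector cells.

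In the agrin and MuSK list, Dok7, the adaptor that activates MuSK from inside the cell, rose in DM on MB by 2.01 ± 0.17 in shRNA cells and 1.81 ± 0.17 in vector cells (limma adjusted p = 2.05e-07 and 4e-07). A dimmer Dok7 probe set on MB had 1.13 in shRNA cells (limma adjusted p = 0.0544) and 1.16 in vector cells (limma adjusted p = 0.0293). For the brighter one, the mean signals were 3330 in DM shRNA, 3501 in DM vector, 811.7 in GM shRNA and 986.1 in GM vector arrays, and the shRNA in DM left it at -0.06 (limma adjusted p = 0.948). Macf1, which links rapsyn to the cytoskeleton, rose on MA by 0.99 ± 0.18 in shRNA cells and 1.24 ± 0.18 in vector cells. On MB it rose by 1.26 ± 0.34 in shRNA cells and 1.49 ± 0.34 in vector cells, the first call being lost without any 1 of 5 arrays (limma adjusted p up to 0.162). Lrp4, the agrin receptor, fell by 0.91 ± 0.14 in shRNA cells and by 0.43 ± 0.14 in vector cells, where the call was lost without DM vector replicate 2 (limma adjusted p = 0.0898), GM vector replicate 1 (limma adjusted p = 0.0698) or GM vector replicate 4 (limma adjusted p = 0.0875). Its partner Agrn averaged 102.2 in DM shRNA, 98.47 in DM vector, 101.4 in GM shRNA and 101.5 in GM vector arrays. Cttn, the actin-binding protein cortactin, fell by 0.51 ± 0.11 in shRNA cells and by 0.64 ± 0.11 in vector cells at its brightest probe set. Its other 3 probe sets on MA disagreed: one fell in both kinds of cell (by 0.68 in shRNA cells and by 0.85 in vector cells), one fell in shRNA cells alone (by 0.46, limma adjusted p = 0.0138, against -0.26 in vector cells, limma adjusted p = 0.112), and one passed in neither (-0.16 in shRNA cells and 0.08 in vector cells).

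Abl1, a tyrosine kinase downstream of agrin, averaged 150 in DM shRNA, 67.41 in DM vector, 223.7 in GM shRNA and 222.5 in GM vector arrays on MA. DM vector cells thus held the lowest mean, and with the shRNA in DM the gene was higher by 1.00 ± 0.12 (limma adjusted p = 4.32e-05), with an interaction of 0.99 ± 0.17 (limma adjusted p = 0.00183). The Abl1 probe set on MB did not do so, at -0.15 ± 0.24 (limma adjusted p = 0.888) for the shRNA in DM. Dvl1, a signalling adaptor that binds MuSK, fell by 0.40 ± 0.10 with the shRNA in DM (limma adjusted p = 0.0156). This was lost without DM shRNA replicate 1 (limma adjusted p = 0.0646) or DM vector replicate 2 (limma adjusted p = 0.069), and its other probe set had -0.42 (limma adjusted p = 0.188).

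Among neuregulin receptors and ETS factors, Erbb3, a neuregulin receptor of muscle, rose in DM by 3.60 ± 0.14 in shRNA cells and 3.38 ± 0.14 in vector cells. Erbb2, the receptor tyrosine kinase with which ERBB3 pairs, fell in vector cells by 0.60 ± 0.13 (limma adjusted p = 0.00132) and had -0.18 ± 0.13 in shRNA cells (limma adjusted p = 0.314). The ETS factor Etv4 fell by 0.96 ± 0.23 in shRNA cells and by 2.13 ± 0.23 in vector cells. It was dim, with means of 4.19 in DM shRNA, 4.87 in DM vector, 23.15 in GM shRNA and 72.7 in GM vector arrays. Both DM means lie under the pseudocount and the gene passed the filter only through GM arrays, so the size of its fall is set in part by the pseudocount. Erbb3 and Etv4 were both lower with the shRNA in GM, Erbb3 by -0.55 ± 0.14 (limma adjusted p = 0.0331) and Etv4 by -1.23 ± 0.23 (limma adjusted p = 0.00573). The Erbb3 call was lost without any 1 of 5 arrays (limma adjusted p up to 0.129). It was also lost with a pseudocount of 50 (limma adjusted p = 0.0985), no filter (limma adjusted p = 0.052) or the compared groups alone (limma adjusted p = 0.113). Erbb3 means in GM were 19.54 in shRNA and 35.48 in vector arrays, so the pseudocount sets the size of its changes in part. Gabpa and Gabpb1, which encode the N-box binding factor GABP, passed in no comparison. Of the esterases and anchors, Colq and Bche were not tested on MA, and Hspg2 and Prima1 passed in no comparison.

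In the postsynaptic scaffold and matrix list, Dag1, the laminin receptor dystroglycan, rose by 2.13 ± 0.12 in shRNA cells and 2.35 ± 0.12 in vector cells, and Dtna, dystrobrevin alpha, rose by 2.40 ± 0.23 in shRNA cells and 3.14 ± 0.23 in vector cells. Dtna means in GM were 23.63 in shRNA and 15.2 in vector arrays, under the filter level. The size of its rise is thus set in part by the pseudocount. The other 3 Dag1 probe sets rose in both kinds of cell, while of the other 4 Dtna probe sets 2 rose in shRNA cells and 3 in vector cells. Sntb1, a syntrophin, rose on MB by 4.89 ± 0.43 in shRNA cells and 5.42 ± 0.43 in vector cells at its brightest probe set. Its other probe sets on MB had 3.84, 2.44 and 1.12 in shRNA cells and 4.2, 3.38 and 2.11 in vector cells. The last of these did not pass in shRNA cells (limma adjusted p = 0.304), and the MA probe set was too dim to test. Sntb2, a relative of Sntb1, fell on MA by 1.42 ± 0.22 in shRNA cells and by 1.44 ± 0.22 in vector cells. With the shRNA in DM, Sntb2 was higher by 0.69 ± 0.22 (limma adjusted p = 0.0426), a call lost without any 1 of 11 of the 12 arrays (limma adjusted p up to 0.154). Nid2, a basement membrane nidogen concentrated at synapses, averaged 370.6 in DM shRNA, 130 in DM vector, 445.2 in GM shRNA and 309.7 in GM vector arrays. It was higher with the shRNA by 1.42 ± 0.14 in DM (limma adjusted p = 7.25e-06) and by 0.51 ± 0.14 in GM (limma adjusted p = 0.0369), where the call was lost without any 1 of 6 arrays (limma adjusted p up to 0.174). Its interaction was 0.91 ± 0.19 (limma adjusted p = 0.00802).

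Among the laminin chains of the same list, Lama5 averaged 282.6 in DM shRNA, 216.6 in DM vector, 193.1 in GM shRNA and 266.5 in GM vector arrays. It rose in DM by 0.51 ± 0.13 in shRNA cells (limma adjusted p = 0.00617) and had -0.29 ± 0.13 in vector cells (limma adjusted p = 0.0724), with an interaction of 0.81 ± 0.18 (limma adjusted p = 0.0111). With the shRNA it had 0.37 ± 0.13 in DM (limma adjusted p = 0.0622) and -0.44 ± 0.13 in GM (limma adjusted p = 0.0572). A dimmer Lama5 probe set was called in all of these, with 0.82 in shRNA cells and -0.68 in vector cells. For the shRNA that probe set had 0.86 in DM and -0.64 in GM (limma adjusted p = 0.00302 and 0.0401). Lamb2, a laminin chain concentrated at synapses, fell in shRNA cells by 0.90 ± 0.15 (limma adjusted p = 0.000314) and had -0.35 ± 0.15 in vector cells (limma adjusted p = 0.0648).

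In the list of activity-dependent regulation, Myog, the myogenic factor that activates the subunit promoters, rose by 6.12 ± 0.17 in shRNA cells and 6.19 ± 0.17 in vector cells. With the shRNA in DM it averaged 5222, against 6860 in DM vector arrays, a change of -0.36 ± 0.17 that did not pass (limma adjusted p = 0.174). Runx1, a transcription factor that rises in denervated muscle, averaged 95.96 in DM shRNA, 164.7 in DM vector, 51.54 in GM shRNA and 50.73 in GM vector arrays on MA. It rose in DM by 0.73 ± 0.15 in shRNA cells and 1.46 ± 0.15 in vector cells, and with the shRNA in DM it was lower by -0.71 ± 0.15 on MA (limma adjusted p = 0.00398) and -1.08 ± 0.22 on MB (limma adjusted p = 0.017). Its interaction on MA was -0.73 ± 0.21 (limma adjusted p = 0.0391). The interaction call was lost without any 1 of 9 arrays (limma adjusted p up to 0.109), and the MB call without any 1 of 4 (limma adjusted p up to 0.0803). On MB, Runx1 rose in DM in vector cells, by 1.53 to 1.78 with any 1 array left out (limma adjusted p up to 0.000393). It was not called on MB in shRNA cells. Of the other 3 Runx1 probe sets on MA, one rose in shRNA cells (0.86, limma adjusted p = 0.00267) and in vector cells (1.92, limma adjusted p = 9.64e-07). The remaining ones passed in neither, with 0.41 (limma adjusted p = 0.264) and 0.14 (limma adjusted p = 0.753) in vector cells. With the shRNA in DM none of the 3 passed, at -0.55 (limma adjusted p = 0.0617), -0.06 (limma adjusted p = 0.917) and -0.24 (limma adjusted p = 0.684). Their interactions, in the same order, were -1.05 (limma adjusted p = 0.0229), -0.05 (limma adjusted p = 0.954) and 0.13 (limma adjusted p = 0.903). Hdac5, a histone deacetylase that restrains muscle genes, fell in DM on MA by 0.46 ± 0.16 in shRNA cells, a call lost without any 1 of 5 arrays (limma adjusted p up to 0.139), and by 0.98 ± 0.16 in vector cells.

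For the shRNA in DM the 5 lists together gave 3 genes higher (Abl1, Nid2 and Sntb2) and 2 lower (Dvl1 and Runx1) of 27 on MA, shares near the 10.7% higher and 6.24% lower among all tested MA probe sets. On MB they gave 0 higher and 1 lower (Runx1) of 15 on MB, where 0.782% of all tested probe sets were called higher and 0.389% lower. The interaction called 4 of the 27 positive on MA (Abl1, Etv4, Lama5 and Nid2) and 1 negative (Runx1), beside 5.48% and 4.48% of all tested probe sets. That of Etv4 was 1.18 ± 0.32 (limma adjusted p = 0.0331), a call lost without any 1 of 10 arrays (limma adjusted p up to 0.0895). Ncam1, a cell adhesion molecule of synaptic and denervated muscle, had mean signals of 803.9 in DM shRNA, 649.9 in DM vector, 620.9 in GM shRNA and 531.9 in GM vector arrays and passed in no comparison.

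**Figure D4:**
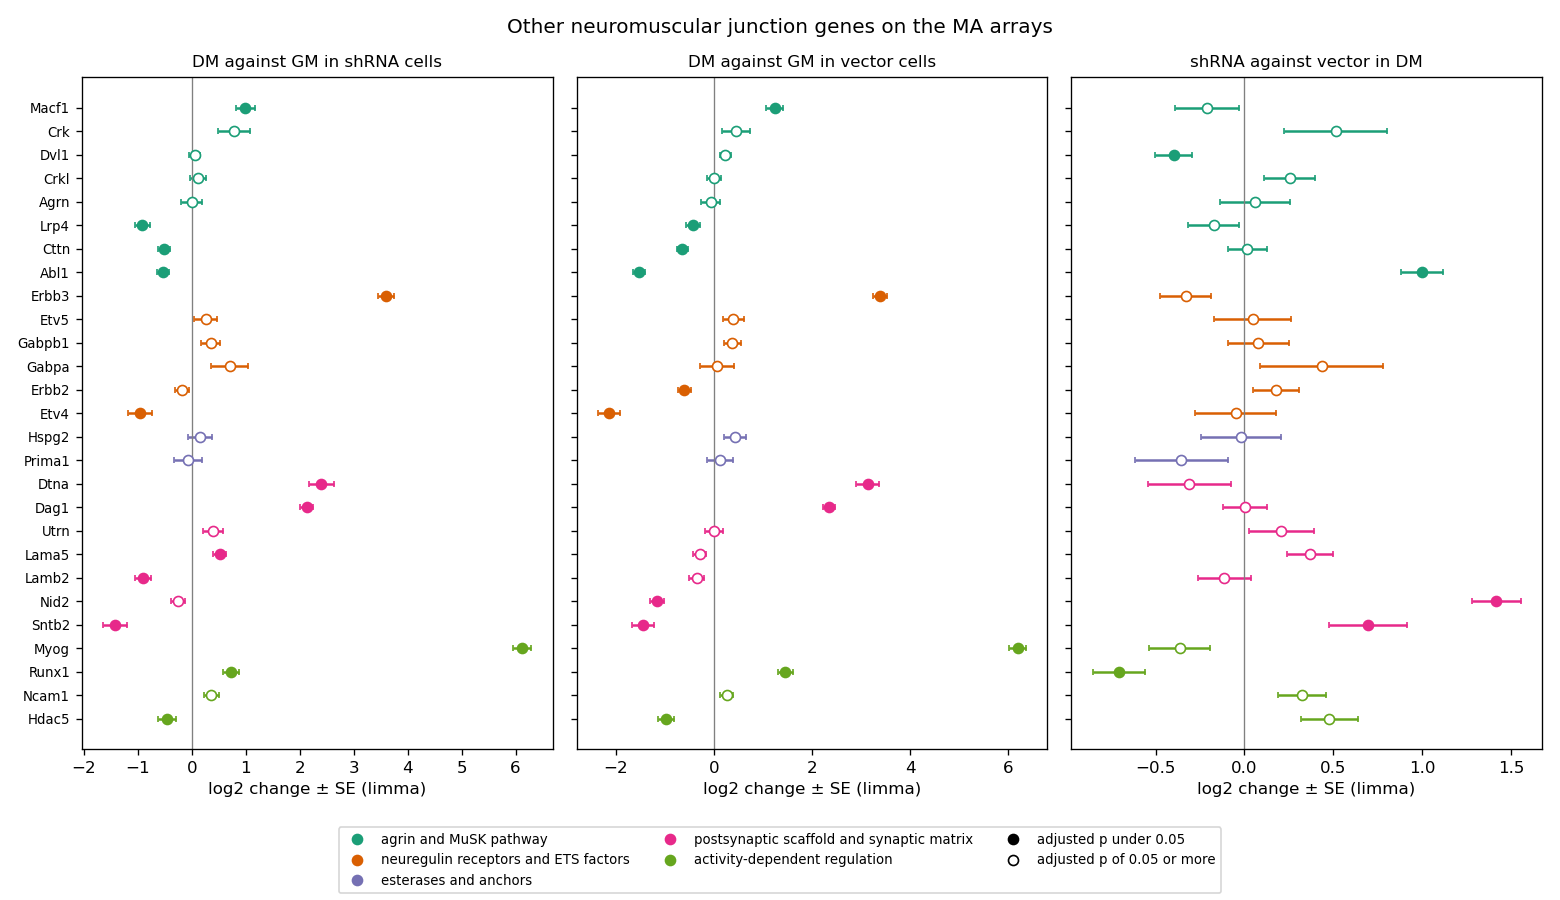
Log2 change ± SE (limma, 3 arrays per group) of the 27 tested junction genes outside the receptor list on the MA arrays, for DM against GM in shRNA cells (left) and vector cells (middle) and for shRNA against vector in DM (right). Colours mark the lists and filled points passed an adjusted p of 0.05. Myog, Erbb3, Dtna and Dag1 lie far right in both media panels, and Nid2 and Abl1 are the highest with the shRNA in DM.

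Other acetylcholine receptors were mostly below the filter on MA and passed it on MB, and 1 of them passed a test. The same filter let through 14367 of 22690 probe sets on MA and 19303 of 22575 on MB. Passing it on MB therefore does not show that a receptor was expressed. Of 9 neuronal nicotinic subunits on the MA arrays, 3 were tested and 0 passed in any comparison, and 3 muscarinic receptors on MA were all below the filter. On MB, all 7 neuronal nicotinic subunits and the 1 muscarinic receptor were tested, and Chrna4 alone passed, in vector cells. It was higher in DM vector than in GM vector arrays (1.71 ± 0.49, limma adjusted p = 0.034), while its MA probe set gave 0.35 ± 0.16 (limma adjusted p = 0.0823). Motor neuron and Schwann cell markers were read as a check for other cells: on MA, 1 of 6 and 1 of 3 were tested and 0 passed in any comparison. The tested motor neuron marker, Slc5a7, averaged 15.87 in DM shRNA, 24.17 in DM vector, 21.09 in GM shRNA and 22.68 in GM vector arrays. Its highest signal was 35.28. Snap25, a synaptic vesicle fusion protein of neurons, stayed between 0.334 and 4.135, and Mnx1, a motor neuron transcription factor, between 1.49 and 13.8. On MB, 1 of 2 motor neuron markers was tested and 0 passed in any comparison, while 0 Schwann cell markers were on that design. The skeletal muscle markers were present. On MA, 5 of 7 were higher in DM in each kind of cell, beside 16.3% (shRNA) and 23.9% (vector) of all tested probe sets. On MB, of 3 tested, 0 were called in shRNA cells, and 1 rose and 1 fell in vector cells. Among all tested MB probe sets 4.21% were called higher and 5% lower in vector cells.

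The genes whose signals ran most like those of Chrna1, Chrng and Musk over the 12 MA arrays were listed by Pearson's r, as a description, since 2 media dominate the spread. For Chrna1 they were Cacng1, the gamma subunit of the muscle calcium channel (r = 0.994), Exoc6, a part of the exocyst (0.994), and Dlgap4, a relative of synaptic scaffold proteins (0.992). For Chrng they were Tnnt1 and Tnnc2, troponins of slow and fast fibres, and the cell cycle inhibitor Cdkn1a, each at 0.997. Tnnc2 averaged 3650 in DM shRNA, 6857 in DM vector, 19.88 in GM shRNA and 32.1 in GM vector arrays. For the dimmer Musk the highest values were lower, at 0.94 for the mitochondrial carrier Slc25a29, 0.93 for the transglutaminase Tgm2 and 0.926 for the autophagy kinase Ulk1.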

How the data were processed

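The arrays measured biotin-labelled total RNA. The authors deposited 1 signal intensity per probe set and array, made with MAS5 per the submitters' processing notes. The sources used here do not give its version, settings or detection calls. Probe sets were named by the platform annotation, and a probe set with several symbols was not used to name a gene. Groups were taken from the sample titles.

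A model with 4 group means was fitted per design with limma 3.58.1 (R 4.3.3) to log2(signal + 15) of 14367 MA and 19303 MB probe sets (8 residual degrees of freedom), with eBayes and a mean-variance trend. P-values were Benjamini-Hochberg adjusted over all tested probe sets of a design and comparison, at 0.05. Precision is limited by 3 arrays per group. The designs were scaled and tested apart. Members and lists were chosen with earlier results of these data known. All members were named. From each pathway list, passing genes were named, at most the 4 with the largest change for the shRNA in DM and at most 4 for DM in vector cells, with the 3 genes most like Chrna1, Chrng and Musk. Others (Lamb2, Agrn, Myog with the shRNA in DM, Ncam1, Colq, Bche, Hspg2, Prima1, Gabpa, Gabpb1, Chrna4, Slc5a7, Snap25, Mnx1) were named for their role after their values were seen. A gene was led by its brightest probe set. The fit was tested on simulated data. Alternatives changed the pseudocount, filter, normalization, trend, groups fitted, replicate block and arrays used.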

Additional observations from a re-analysis of the deposited data

How the results depend on the processing

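Of the calls for Chrna1, Chrnb1, Chrnd, Chrng and Musk in DM against GM in vector cells, and for the same genes except Musk in shRNA cells, none changed under any alternative run, and the 6 probe sets higher in vector cells stayed 6 without any 1 array. Chrnd and 1 Chrng probe set among them passed the filter only through DM, so their stability adds no support. In shRNA cells the number higher in DM ran from 5 to 7, and the number lower with the shRNA in DM from 2 to 4. The interaction called 0 probe sets, against 2 with a pseudocount of 50 (Chrnd -0.64, limma adjusted p = 0.0425, and Chrng probe set 1452520_a_at -0.75, limma adjusted p = 0.015), 1 with quantile normalization (Chrnd -0.91, limma adjusted p = 0.0492), 1 without the variance trend, and 0 to 1 without 1 array. Values near 0 changed sign: the Chrnb1 interaction was -0.04 with a pseudocount of 50 and -0.14 to 0.22 without 1 array, and with the shRNA in GM, Musk ran from -0.13 to 0.51 and Rapsn from -0.18 to 0.07. Rapsn in DM against GM in shRNA cells passed at a filter of 60 (limma adjusted p = 0.0474) and with quantile normalization (limma adjusted p = 0.0389). The cause of these shifts was not tested.

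The labels do not say whether same-numbered arrays belong together. Deviations of same-numbered arrays correlated between -0.139 and 0.293, and those of differently numbered arrays between -0.277 and 0.204. For DM against GM in vector cells the same-numbered values were 0.166 and 0.293. These few pairs cannot settle whether the arrays were paired. With the replicate number as a block, 6 probe sets were higher in DM in each kind of cell, 3 were lower with the shRNA in DM and 0 in GM, counts equal to those without it, though Musk was lost and Rapsn gained in shRNA cells. The Musk change in shRNA cells was 0.71 (limma adjusted p = 0.0526), that of Rapsn 0.41 (limma adjusted p = 0.0325), the Chrnb1 interaction was -0.05, and 0 other junction genes had a negative interaction on MA, against 1 without the block. The block also ended the calls of Lrp4 in vector cells (-0.38, limma adjusted p = 0.0661), Macf1 on MB in shRNA cells (1.26, limma adjusted p = 0.0529), Sntb2 with the shRNA in DM (0.69, limma adjusted p = 0.0504) and the interactions of Etv4 (1.22, limma adjusted p = 0.0542) and Runx1 (-0.77, limma adjusted p = 0.0549) on MA.

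Counts of the other junction genes moved as follows. For the shRNA in GM on MA, genes higher numbered 1, against 2 with a pseudocount of 50, 0 with no filter, 2 with the compared groups alone and 0 to 2 without 1 array. Genes lower there numbered 2, against 1 with a pseudocount of 50, 1 with no filter and 1 to 3 without 1 array. Genes with a negative interaction on MA numbered 1, against 0 with no filter and 0 to 1 without 1 array. For the shRNA in DM on MA, 5 were higher at a filter of 60, and 1 was lower with the compared groups alone (1 to 2 without 1 array). For DM in shRNA cells on MA, 11 were higher with the compared groups alone, against 7, and 7 to 11 without 1 array, the 11 without DM vector replicate 3. On MB with the shRNA in DM, 1 was higher with quantile normalization, and 0 were lower without the trend (0 to 1 without 1 array).

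Arrays give no counts, so signals under the filter bound no amount of RNA.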
